A study of Mus musculus with 18 samples.

Results

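The 42 genes described here carry out protein folding in the endoplasmic reticulum (ER) and the unfolded protein response (UPR), and they were followed across the cell types of the adult mouse stomach. They were taken from a list of gene names: 9 stress sensors and transcription factors, 11 chaperones and co-chaperones, 5 protein disulfide isomerases, 10 subunits of the translocon and the signal peptidase, and 7 factors of ER-associated degradation (ERAD). Of the 42 genes, 41 were among the 31201 gene names in the count tables, and Ddit3 was not analysed here. The list was set against how the cells secrete: mucus-secreting pit and neck cells were compared with enzyme-secreting chief cells and with acid-secreting parietal cells.

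Single cells of the glandular stomach had been sorted into 384-well plates and sequenced by Quartz-Seq2, a plate-based method that counts messenger RNA molecules by unique molecular identifiers (UMIs). Dataset 1 held corpus and antrum cells on 6 plates, and dataset 2 held corpus cells on 12 plates. Each dataset came from 2 pools of cells, tube1 and tube2 in dataset 1 and K and T in dataset 2, and each pool was made from 3 mice by a different operator, so that operator and pool cannot be told apart. The mice in all groups were 10-week-old wild-type males of the C57BL/6J strain, no treatment or transgene is named, and the groups compared are cell types from the same animals.

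The ER is where secreted and membrane proteins enter the secretory pathway. They pass through the Sec61 translocon, lose their signal peptide, fold with the help of chaperones and disulfide isomerases, and are sent to the proteasome by ERAD when folding fails. The UPR adjusts this machinery to the load through the sensors IRE1, PERK and ATF6: IRE1 splices the mRNA of Xbp1, PERK acts through ATF4, and ATF6 is released by cleavage. Gastric chief cells are a textbook case of a zymogenic cell packed with rough ER, neck and pit cells make mucins, which are large glycoproteins rich in disulfide bonds, and parietal cells are filled with mitochondria and acid-secreting membranes.

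A total of 4484 cells were kept, 491 in dataset 1 and 3993 in dataset 2. UMIs per plate ranged from 3054370 to 5346035 in dataset 1 and from 10540256 to 12850942 in dataset 2. In dataset 2 the types held 121 mature pit, 291 pre-pit, 1285 isthmus progenitor, 1247 neck, 180 chief and 702 parietal cells. Clusters were those deposited by the authors, with the type names given to them in the study. Levels are counts per 1000000 UMIs (CPM): the UMIs of all cells of 1 type in 1 pool were summed and scaled by edgeR's TMM method. The plot of the 41 members by type and pool shows them relative to each member's own mean.

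**Figure D1:**
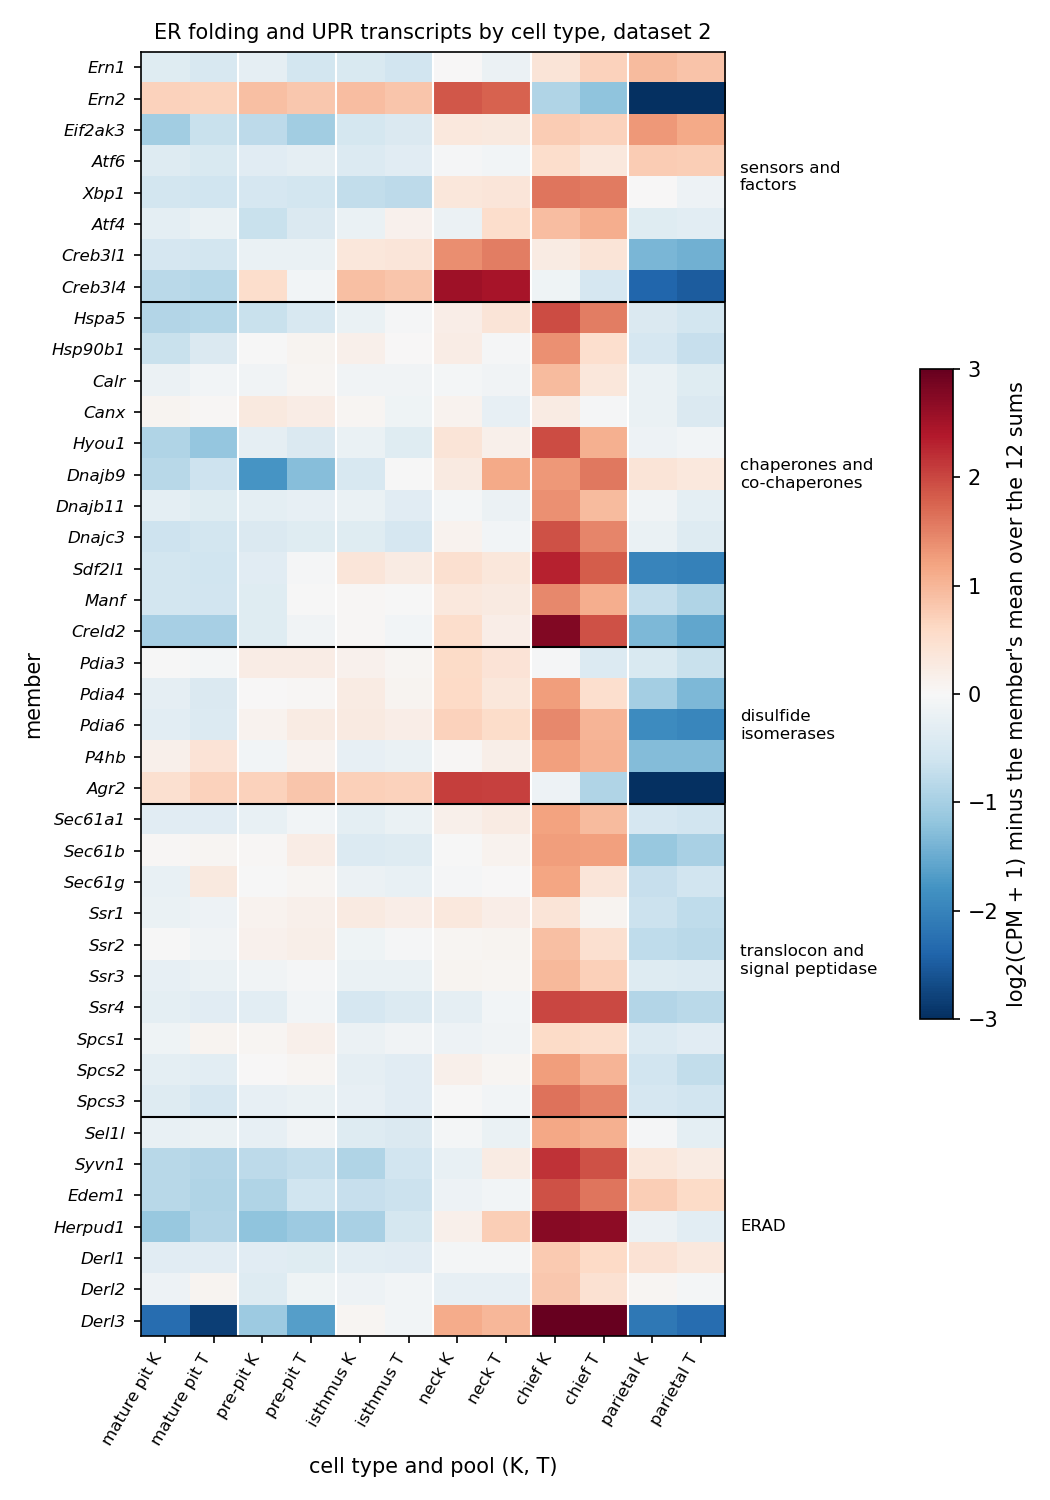
Heat map of the 41 measured members (rows, by functional group) in the 6 cell types of dataset 2, with pools K and T side by side. Colour is log2(CPM + 1) minus the member's mean over the 12 sums, and the colours stop at -3 and 3; the chief columns are red for most members, the neck columns are red for Ern2, Creb3l1, Creb3l4 and Agr2, and the parietal columns are blue for the same 4 genes.

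The labels were checked against markers. Gkn1 was 46711 and 48866 CPM in mature pit cells and 311 and 406 CPM in neck cells of pools K and T. Muc6 was 1437 and 1482 CPM in neck and 38.2 and 67.02 CPM in mature pit cells. Cblif, the intrinsic factor gene, was 22346 and 21680.0 CPM in chief and 1207 and 1794 CPM in neck cells. Bhlha15, which encodes the zymogenic transcription factor MIST1, was 334 and 355 CPM in chief and 21.8 and 32.04 CPM in neck cells. One chief marker went the other way, since Pga5 was 2127 and 2196 CPM in neck and 117 and 112 CPM in chief cells. Atp4a, the proton pump, was 23994 and 22398 CPM in parietal and 714 and 602 CPM in chief cells. The summed level of 5 plasma cell markers, a cell type known for its UPR, rounded to 0 CPM in all 12 sums, and that of 5 leukocyte markers was at most 1.12 CPM. An enterocyte list of 5 genes summed to 10469 and 10190 CPM in parietal cells, of which Apoa1 made up 10076 and 9842 CPM, and to 57.8 to 134 CPM in the other types; its part in the parietal levels was not tested.

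The scale of the values bears on comparisons with chief cells. Genes above 1% of the UMIs of a type took 52.3% and 52.2% of chief UMIs in pools K and T, against 13.9% to 24.4% in the other types, and 3 genes of digestive secretion led in chief cells: Pgc with up to 17.8%, Clps with up to 13.1%, and Pla2g1b. TMM scales such a type by the bulk of its other genes. Without TMM, on total UMIs alone, the median log2 difference of all genes moved by 0.71 in mucus against chief cells and by 0.33 in mucus against parietal cells. As a share of all UMIs, the members took 2.21% and 1.74% in chief cells, 2.32% and 2.26% in neck, 1.60% and 1.58% in isthmus, 1.36% and 1.40% in pre-pit, 1.11% in both pools in mature pit, and 0.758% and 0.705% in parietal cells. On that scale, summed over all members, neck cells were highest, both chief pools lay below both neck pools, and parietal cells were lowest. The groups differed. Disulfide isomerases, Agr2 among them, took 0.976% and 0.921% in neck and 0.378% and 0.283% in chief cells, and sensors and factors were also higher in neck cells. Chaperones took 0.930% and 0.641% in chief and 0.639% and 0.606% in neck cells. The translocon and signal peptidase group and the ERAD group were also higher in chief cells. In sums over cells, fewer cells of a kind within a type and fewer molecules per cell cannot be told apart.

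By mean level after TMM, 31 of the 41 members were highest in chief cells, 6 in neck cells (Ern2, Creb3l1, Creb3l4, Pdia3, Agr2 and Ssr1), 3 in parietal cells (Ern1, Eif2ak3 and Atf6) and 1 in pre-pit cells (Canx). Parietal cells were lowest for 24 members. The ranks of all genes are not given here, so these counts describe the members only. TMM factors were 0.690 and 0.679 in chief and 1.23 and 1.19 in neck cells of pools K and T, so the ranks rest on that scale. Each difference below is a log2 fold change ± standard error from edgeR's quasi-likelihood test over 2 pools, with p-values adjusted by Benjamini-Hochberg over all 13894 genes tested and called under 0.05. The clusters were drawn by the authors from these same counts, so the p-values describe how far the types stand apart. Mucus cells are the mean of neck cells and pit cells, and pit cells the mean of mature pit and pre-pit cells, on the log2 scale.

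Compared with chief cells, mucus cells were higher for 5 members and lower for 34, and 2 were not called; of all genes 23.5% were higher and 24.2% lower. The member counts were also 5 and 34 at an unadjusted p under 0.05 and by DESeq2. Of the 5, Ern2 and Agr2 were above chief cells in neck, pre-pit and mature pit cells alike. Creb3l4 lay below chief cells in mature pit cells, Creb3l1 lay below them in both pit types, and Pdia3 overlapped them in mature pit cells. Compared with parietal cells, mucus cells were higher for 25 and lower for 7 (of all genes 32.3% and 34.6%). Chief cells were higher than parietal cells for 38 members and lower for 2, Eif2ak3 and Atf6 (of all genes 24.8% and 29.0%). Pit cells were lower than neck cells for 29 members and higher for 0 in edgeR's test (of all genes 29.2% and 23.9%). Spcs1 alone, 1 member, was higher in pit cells at an unadjusted p under 0.05 and by DESeq2; with the pool as a block, Canx (adjusted p = 0.0134) and Spcs1 (0.0250) were called higher. The median difference of the 41 members was -1.09 in mucus against chief, 0.36 in mucus against parietal, 1.65 in chief against parietal and -0.44 in pit against neck cells, where that of all genes lay between -0.08 and 0.02. The mucus against chief, mucus against parietal and chief against parietal comparisons share their sums in pairs.

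A list of 15 genes known to respond to tissue dissociation, Fos, Jun and heat shock genes among them, moved with 2 of these comparisons, mucus against chief and chief against parietal cells. Of the 15, 8 were lower and 0 higher in mucus than in chief cells in edgeR's test, of all genes 24.2% and 23.5%. At an unadjusted p under 0.05, 10 were lower and 1 higher, and the median was -1.23. In chief against parietal cells 7 were higher and 0 lower (8 and 0 unadjusted, median 1.54), of all genes 24.8% and 29.0%. In mucus against parietal cells 4 were higher and 0 lower (6 and 0 unadjusted, median 0.31), of all genes 32.3% and 34.6%. The 4 were a smaller share than that of all genes. Their summed level was 6490 and 10981 CPM in chief, 5331 and 13236 in neck and 3314 and 3487 in parietal cells, with 14 or 15 of the 15 detected in each sum. Without neck cluster 0, an alternative chosen after seeing the data, the members were again higher for 5 and lower for 34 in mucus against chief cells (of all genes 24.8% and 25.9%), and higher for 24 and lower for 7 in mucus against parietal cells (34.4% and 36.3%). The part of this list in the chief and parietal levels was not tested.

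On total UMIs without TMM the same comparisons were made against a shifted background. Mucus cells were then higher than chief cells for 7 members and lower for 23 while 57.0% of all genes were higher and 9.33% lower, so that the members and the genes at large pointed opposite ways. The counts were 31 and 6 in mucus against parietal cells (of all genes 47.6% and 23.9%), 34 and 3 in chief against parietal cells (16.1% and 42.8%), and 0 and 33 in pit against neck cells (15.6% and 41.9%).

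**Figure D2:**
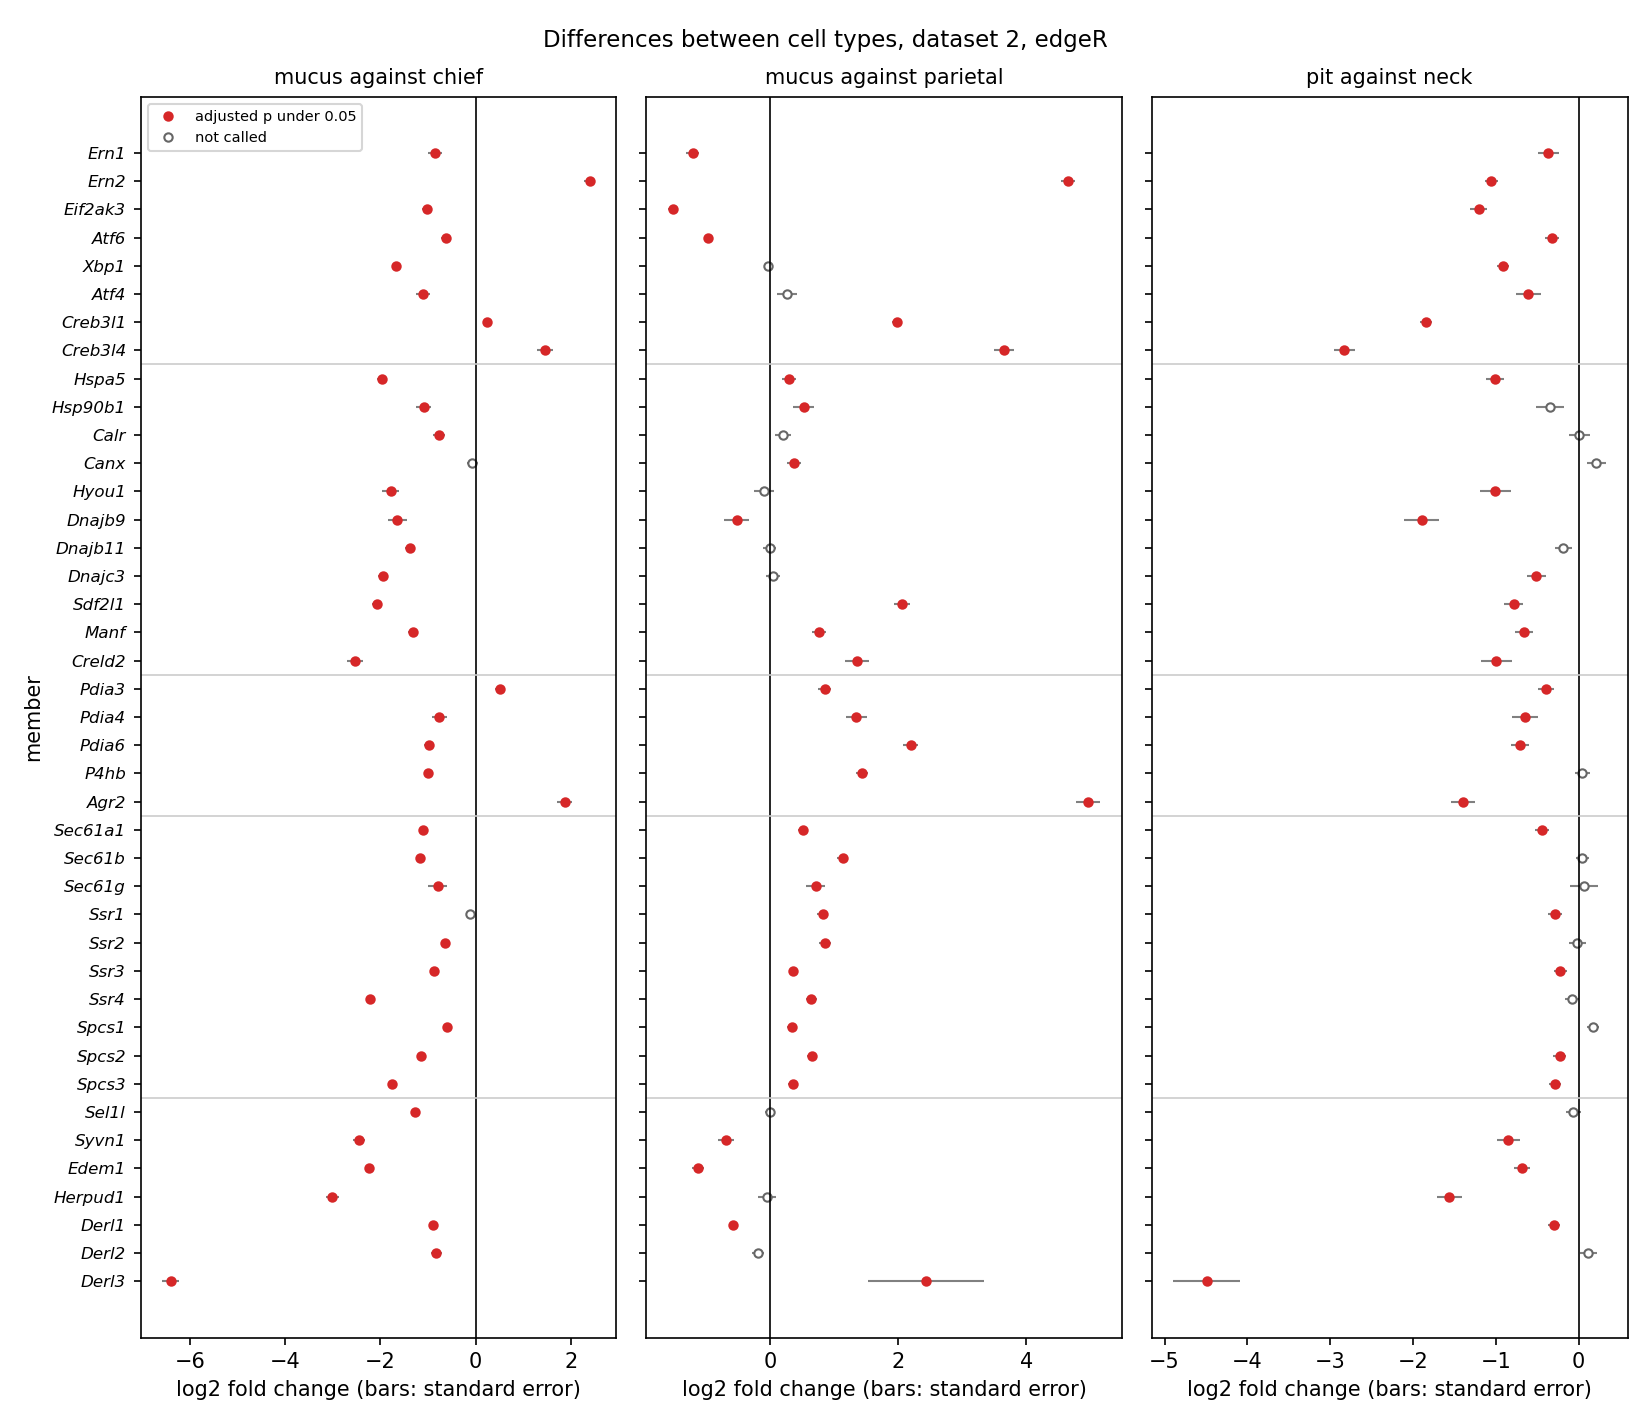
Log2 fold change of each member (rows, in the order of the heat map) in mucus against chief, mucus against parietal and pit against neck cells of dataset 2, with bars for the standard error and filled points for an adjusted p under 0.05. Most points lie left of 0 in mucus against chief cells, and Ern2, Agr2 and Creb3l4 lie farthest right in the first 2 panels.

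Of the 8 sensors and transcription factors measured, 3 were higher and 5 lower in mucus than in chief cells, 3 were higher and 3 lower than in parietal cells, and all 8 were lower in pit than in neck cells. Of all genes 23.5% were higher and 24.2% lower in the first comparison, 32.3% and 34.6% in the second, and 29.2% lower in the third. The 3 and 3 against parietal cells were shares near those of all genes. Ern2 encodes IRE1 beta, the form of the sensor found in mucus-secreting epithelia (chr7:121769116-121785468, GRCm39, minus strand). Its level was 228 and 213 CPM in neck cells of pools K and T, 117 and 109 in pre-pit, 100.4 and 99.1 in mature pit, 119 and 111 in isthmus, 32.99 and 26.2 in chief and 6.23 and 5.89 in parietal cells. Neck cells were highest and parietal cells lowest in both pools, neither overlapped another type, and pre-pit and isthmus cells overlapped. Mucus cells were above chief cells by 2.39 ± 0.11, adjusted p = 7.5e-10, and above parietal cells by 4.65 ± 0.10, adjusted p = 1.3e-13. The difference in pit against neck cells was -1.05 ± 0.07, adjusted p = 6.7e-08. With each cell thinned to 10000 UMIs, which left out 20 shallower cells of the 6 types, Ern2 was seen in 91.5% and 88.1% of neck cells and in 4.51% and 3.31% of parietal cells, and without thinning in 98.9% and 99.3% against 11% and 8.61%, at median depths of 22530.0 UMIs in neck, 34844.5 in chief and 47647 in parietal cells.

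Creb3l4 and Creb3l1 encode transcription factors of the OASIS family, which are held in the ER membrane and released by cleavage as ATF6 is. Creb3l4 (chr3:90144103-90150845, GRCm39, minus strand) was 330.0 and 313 CPM in neck, 106 and 101 in isthmus, 80.8 and 52.4 in pre-pit, 50.9 and 38.9 in chief, 31.8 and 30.3 in mature pit and 10.03 and 9.09 in parietal cells. Neck cells stood above isthmus cells, the next type, in both pools. The difference was 1.45 ± 0.16, adjusted p = 6e-06 in mucus against chief cells, 3.65 ± 0.16, adjusted p = 7.5e-11 in mucus against parietal cells and -2.83 ± 0.13, adjusted p = 9.2e-10 in pit against neck cells. Creb3l1 was 565 and 622 CPM in neck, 254 and 279 in chief, 272 and 273 in isthmus and 81.6 and 77.4 in parietal cells, with chief and isthmus cells overlapping. It differed by 1.98 ± 0.08, adjusted p = 3.3e-11 in mucus against parietal cells and by -1.84 ± 0.07, adjusted p = 2.2e-10 in pit against neck cells. Against chief cells the mucus mean was above by 0.23 ± 0.07, adjusted p = 0.0200. Neck cells lay above chief cells. Both pit types lay below them, mature pit cells at 149 and 145 CPM and pre-pit cells at 185 and 186 CPM.

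The other 3 sensors ran the opposite way. Eif2ak3, which encodes PERK (chr6:70821461-70882235, GRCm39, plus strand), was 121 and 109 CPM in parietal, 84.4 and 79.3 in chief, 61.6 and 60.2 in neck, 33.9 and 35.8 in isthmus, 28.05 and 23.2 in pre-pit and 23.2 and 30.7 in mature pit cells. Parietal, chief, neck and isthmus cells followed each other without overlap, and the 2 pit types overlapped. Eif2ak3 was lower in mucus than in parietal cells (-1.53 ± 0.08, adjusted p = 5.9e-10), lower in mucus than in chief cells (-1.03 ± 0.10, adjusted p = 2.1e-06) and lower in pit than in neck cells (-1.21 ± 0.10, adjusted p = 3.1e-07). Ern1, the widely expressed IRE1 alpha, was 35.7 and 33.2 CPM in parietal, 23.5 and 29.3 in chief and 18.03 and 15.7 in neck cells. Its difference in mucus against parietal cells was -1.22 ± 0.10, adjusted p = 7.1e-08. In chief against parietal cells the difference of Ern1 was -0.37 ± 0.15 with adjusted p = 0.0506, which was 0.0388 with the pool as a block. Atf6 was 55.9 and 55.3 CPM in parietal, 47.5 and 40.8 in chief and 32.2 and 31.1 in neck cells, and the 3 sensor genes were called lower in mucus than in both chief and parietal cells; on total UMIs the differences from chief cells were no longer called for Ern1 and Atf6, and that of Atf6 turned positive.

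Xbp1, the target of IRE1 splicing and a master factor of secretory cells, and Atf4, the factor downstream of PERK, were highest in chief cells. Xbp1 (chr11:5470606-5483027, GRCm39, plus strand) was 2185 and 2091 CPM in chief, 903 and 924 in neck, 721 and 644 in parietal, 505 and 489 in pre-pit, 485 and 468 in mature pit and 429 and 411 in isthmus cells. No 2 types overlapped. The difference was -1.68 ± 0.07, adjusted p = 2.2e-10 in mucus against chief cells, while against parietal cells it was -0.03 ± 0.07, adjusted p = 0.699, and 0.30 on total UMIs. These 3′ counts do not tell spliced from unspliced Xbp1 mRNA. Atf4 was 549.6 and 621 CPM in chief, 257 and 418 in neck, 255 and 319 in isthmus and 225 and 233 in parietal cells, so that pool T exceeded pool K in neck, chief and isthmus cells. Its difference in mucus against chief cells was -1.100 ± 0.15, adjusted p = 2.7e-05. Against parietal cells it was 0.26 ± 0.15 with adjusted p = 0.145, and 0.0366 with the pool as a block.

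**Figure D3:**
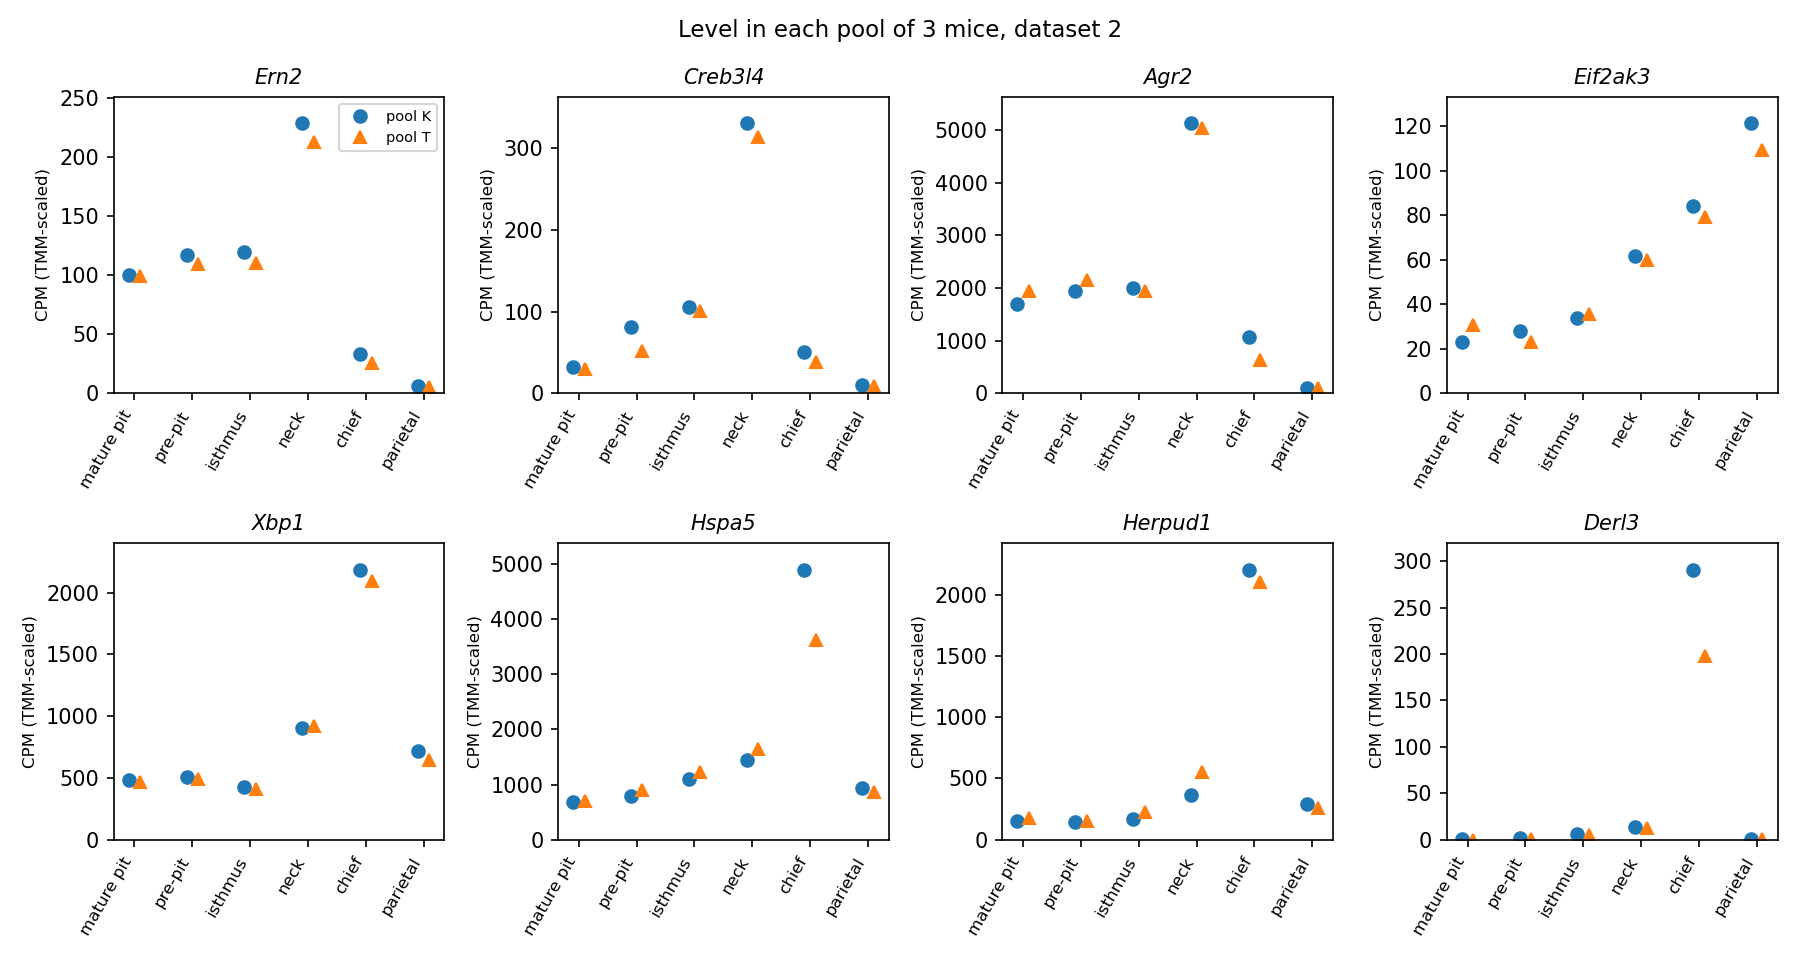
Level in CPM (linear axes from 0) of 8 members in the 6 cell types of dataset 2, with a circle for pool K and a triangle for pool T. Ern2, Creb3l4 and Agr2 peak in neck cells, Eif2ak3 in parietal cells, and Xbp1, Hspa5, Herpud1 and Derl3 in chief cells, and in these panels the 2 pools of the peak type both lie above every other type.

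Many UPR targets carry an ER stress response element in the promoter, to which ATF6 and XBP1 are known to bind together with NF-Y. The element ERSE, spelled CCAAT, then any 9 bases, then CCACG, was searched on both strands of the RefSeq promoters of GRCm38.p6, from 250 bases before to 50 after each gene's start, and 33 of the 42 members were matched there. ERSE was found in 9 of the 33 (27.3%) and in 37 of all 27025 genes with a promoter (0.137%). The list holds known UPR genes, many of which are known to carry this element, so the higher share is not a separate finding. ERSE-II, spelled ATTGG, any base, then CCACG, was found in 2 of the 33 (6.06%), Herpud1 and Dnajb11, and in 12 genes in all (0.0444%). UPRE (TGACGTGG) was in 0 of the 33 and in 0.714% of genes, and CARE (TGATGCAA), an amino acid response element, in 1 of the 33, Herpud1, and in 1.03% of genes. A match describes these letters only, and no match says only that they are not in this window. Sequences are shown for the members with ERSE and for Herpud1 with ERSE-II. These include Creld2, Herpud1 and Derl3, which stood far apart between chief and mucus cells, and Canx, which did not. Sdf2l1 and Edem1, which also stood far apart, were matched without either element. The match in Dnajb11, at position 7 after the start, is not shown. Capitals mark ERSE, or ERSE-II in Herpud1, read 5′ to 3′ along the strand of the gene. Where the motif lies on the other strand the capitals are its reverse complement. Positions are counted from the start of the gene.
Hspa5, chr2:34772005-34772063, gene on the plus strand, motif first base at -65: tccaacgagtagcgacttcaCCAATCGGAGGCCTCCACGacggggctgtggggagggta
Calr, chr8:84847055-84847113, gene on the minus strand, motif first base at -162: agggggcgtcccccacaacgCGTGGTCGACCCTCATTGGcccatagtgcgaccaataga
Herpud1, chr8:94386357-94386407, gene on the plus strand, motif first base at -52: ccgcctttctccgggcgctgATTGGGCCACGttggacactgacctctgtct
Derl3, chr10:75893222-75893280, gene on the plus strand, motif first base at -156: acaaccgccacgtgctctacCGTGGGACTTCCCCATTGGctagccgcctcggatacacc
Hsp90b1, chr10:86705618-86705676, gene on the minus strand, motif first base at -212: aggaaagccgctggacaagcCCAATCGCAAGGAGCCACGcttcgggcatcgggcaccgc
Hsp90b1, chr10:86705513-86705571, gene on the minus strand, motif first base at -107: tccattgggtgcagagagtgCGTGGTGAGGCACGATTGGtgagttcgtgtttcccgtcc
Canx, chr11:50325780-50325838, gene on the minus strand, motif first base at -145: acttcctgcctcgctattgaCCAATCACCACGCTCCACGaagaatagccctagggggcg
Pdia6, chr12:17266471-17266529, gene on the plus strand, motif first base at -98: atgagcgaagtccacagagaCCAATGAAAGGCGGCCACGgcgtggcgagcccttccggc
Dnajc3, chr14:118937807-118937865, gene on the plus strand, motif first base at -105: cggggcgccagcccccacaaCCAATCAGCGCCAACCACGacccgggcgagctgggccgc
Creld2, chr15:88819500-88819558, gene on the plus strand, motif first base at -126: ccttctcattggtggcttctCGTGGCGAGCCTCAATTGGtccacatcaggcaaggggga
Syvn1, chr19:6046512-6046570, gene on the plus strand, motif first base at -44: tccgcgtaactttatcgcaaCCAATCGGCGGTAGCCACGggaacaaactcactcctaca

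Among the 11 measured members with ERSE or ERSE-II, 0 were higher and 10 lower in mucus than in chief cells by edgeR's test, with a median difference of -1.94. Among the 21 matched members without either, 3 were higher and 17 lower, with a median of -1.01. Of all genes 23.5% were higher and 24.2% lower. In chief against parietal cells the medians were 1.98 and 1.36. Canx, a member with ERSE, was not called, with a difference of -0.07 ± 0.11, adjusted p = 0.667 in mucus against chief cells. The 2 sets overlapped there, from -6.40 to -0.07 with an element and from -2.24 to 1.87 without. The 2 sets were described by counts and medians, and 9 measured members had no promoter entry. Their functional groups differ too: genes of the translocon and the signal peptidase are found only in the set without an element. Element and group cannot be told apart here.

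The chaperones and co-chaperones of the ER lumen were highest in chief cells, for 10 of the 11 members. In mucus against chief cells 0 were higher by edgeR's test and 10 lower (median -1.64), of all genes 23.5% and 24.2%. On total UMIs Canx was called higher and 8 were lower, of all genes 57.0% and 9.33%. Against parietal cells 6 were higher and 1, Dnajb9, lower, of all genes 32.3% and 34.6%. Hspa5, which encodes the central chaperone BiP (chr2:34661982-34668880, GRCm39, plus strand), was 4888 and 3623 CPM in chief, 1446 and 1652 in neck, 1097 and 1219.6 in isthmus, 934 and 858 in parietal, 797 and 908 in pre-pit and 684 and 699 in mature pit cells. Pool K exceeded pool T in chief cells, and both lay well above the other types. The difference was -1.96 ± 0.10, adjusted p = 2.7e-09 in mucus against chief cells, 2.25 ± 0.14, adjusted p = 6.9e-09 in chief against parietal cells and -1.01 ± 0.11, adjusted p = 4.6e-06 in pit against neck cells. Against parietal cells mucus cells were above by 0.28 ± 0.11, adjusted p = 0.0352, and without neck cluster 0 the adjusted p was 0.192.

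Creld2 and Sdf2l1 are small ER proteins that act beside BiP. Creld2 was 649.7 and 356 CPM in chief, 137 and 107 in neck, 96.9 and 88.01 in isthmus, 73.4 and 86.7 in pre-pit, 46.8 and 46.7 in mature pit and 36.3 and 31.2 in parietal cells. Sdf2l1 was 685 and 494 CPM in chief, 192 and 175 in neck, 94.03 and 91.3 in mature pit and 34.3 and 33.02 in parietal cells. For both genes chief cells were highest and parietal cells lowest without overlap, with mucus cells between. Creld2 differed by -2.53 ± 0.17 in mucus against chief and by 1.35 ± 0.19 in mucus against parietal cells, with adjusted p = 2.8e-08 and 2.2e-05. Sdf2l1 differed by -2.07 ± 0.11 and by 2.05 ± 0.13 in the same 2 comparisons, with adjusted p = 2.3e-09 and 4.2e-09.

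Dnajc3 and Dnajb9 are J-domain partners of BiP, and Hyou1 is its nucleotide exchange factor. Dnajc3 was 820.2 and 598 CPM in chief, 236 and 205 in neck, 191 and 167.1 in parietal and 141 and 149 in mature pit cells, and its difference in mucus against chief cells was -1.94 ± 0.10, adjusted p = 3.8e-09. Hyou1 was 138 and 73.95 CPM in chief, 45.8 and 38.96 in neck and 18.2 and 14.97 in mature pit cells, and its difference in mucus against chief cells was -1.78 ± 0.18, adjusted p = 1.9e-06. Dnajb9 was 245 and 296 CPM in chief, 119 and 218 in neck, 129 and 123 in parietal, 54.5 and 63.8 in mature pit and 28.3 and 39.8 in pre-pit cells. It was the chaperone gene with the lowest pit level relative to neck cells (-1.90 ± 0.21, adjusted p = 5.7e-06). Dnajb11 and Manf, a co-chaperone and a secreted stabiliser of BiP, differed by -1.39 ± 0.10 and -1.32 ± 0.10 in mucus against chief cells, with levels of 413 and 309 CPM and 1013 and 794 CPM in chief cells.

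Hsp90b1, Calr and Canx encode GRP94 and the lectin chaperones calreticulin and calnexin, which fold glycoproteins. Hsp90b1 was 1931 and 1056 CPM in chief, 858 and 721 in neck, 737 and 785 in pre-pit and 521 and 458 in parietal cells. The 2 chief pools were far apart, and the lower one was still above both neck sums. The difference was -1.09 ± 0.16, adjusted p = 7.1e-05 in mucus against chief cells; on total UMIs it was -0.38 with adjusted p = 0.0541. Calr was 2174 and 1411 CPM in chief and 1069 and 1030.0 in neck cells, and Canx was 547 and 448 CPM in chief, 496 and 385 in neck and 564 and 534 in pre-pit cells. Canx thus overlapped between chief and neck cells. Across the 6 types Canx means lay within a 1.49-fold range and Calr means within a 1.95-fold range, while Creld2 spanned 14.9-fold.

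All 5 disulfide isomerases were higher in mucus than in parietal cells, and on total UMIs too, while against chief cells Agr2 and Pdia3 were higher and the other 3 lower. Of all genes 32.3% were higher than in parietal cells (47.6% on total UMIs), and 23.5% were higher and 24.2% lower than in chief cells. AGR2 is known to be needed for mucin folding. Agr2 (chr12:36042904-36054086, GRCm39, plus strand) was 5121 and 5031 CPM in neck, 1937 and 2156 in pre-pit, 2000.2 and 1951 in isthmus, 1695 and 1939.6 in mature pit, 1080.2 and 642 in chief and 95.2 and 105 in parietal cells. Neck cells were highest in both pools, pre-pit cells overlapped isthmus and mature pit cells, and chief and parietal cells followed without overlap. Mucus cells were above chief cells by 1.87 ± 0.16, adjusted p = 4.2e-07, and above parietal cells by 4.97 ± 0.19, adjusted p = 2.8e-11. The difference in pit against neck cells was -1.40 ± 0.14, adjusted p = 2.5e-06.

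Pdia6, P4hb and Pdia4 are general oxidoreductases of the ER, and their order was chief, then mucus, then parietal cells. Pdia6 was 1165 and 862 CPM in chief, 682 and 626 in neck, 344 and 318 in mature pit and 115 and 109 in parietal cells. Its difference was 2.19 ± 0.11, adjusted p = 6.7e-10 in mucus against parietal and 3.18 ± 0.13, adjusted p = 1.6e-10 in chief against parietal cells. P4hb, which also serves collagen hydroxylation, was 2198 and 1939 CPM in chief, 1052 and 1246 in mature pit, 963 and 1063 in neck and 379.5 and 384.3 in parietal cells. It differed by -1.01 ± 0.09, adjusted p = 3.6e-07 in mucus against chief and by 1.43 ± 0.10, adjusted p = 9.9e-09 in mucus against parietal cells, and its 0.04 ± 0.09 in pit against neck cells was not called. Pdia4 was 426 and 249.97 CPM in chief, 270.2 and 224 in neck and 86.5 and 69.2 in parietal cells, so the lower chief pool overlapped neck cells. Pdia3, the isomerase that works with calnexin and calreticulin, was 936 and 833 CPM in neck, 738 and 735 in pre-pit, 614 and 474 in chief and 459 and 398 in parietal cells, and it was higher in mucus than in chief cells by 0.51 ± 0.10, adjusted p = 0.00095. Mature pit cells, at 624 and 601 CPM, overlapped chief cells.

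In mucus against parietal cells all 10 genes of the translocon and the signal peptidase were higher, from 0.33 ± 0.07 for Spcs1 to 1.13 ± 0.08 for Sec61b, with the same 10 of 10 on total UMIs, and in mucus against chief cells 9 of 10 were lower (median -0.99) on the TMM scale, and 5 lower with Ssr1 higher on total UMIs. Of all genes 32.3% were higher in the first comparison (47.6% on total UMIs) and 24.2% lower in the second (9.33%). Ssr4, the delta subunit of the translocon-associated protein complex, set chief cells apart: it was 1726 and 1676 CPM in chief, 356 and 401 in neck, 341 and 405 in pre-pit, 347 and 339 in mature pit, 303 and 322 in isthmus and 231 and 241 in parietal cells. Its difference was -2.21 ± 0.08, adjusted p = 5.3e-11 in mucus against chief and 2.85 ± 0.10, adjusted p = 5.1e-11 in chief against parietal cells. Ssr1, the alpha subunit of the same complex, was 309 and 253 CPM in chief and 298 and 271 in neck cells, which overlapped, and its difference was -0.12 ± 0.09, adjusted p = 0.285. So subunits of 1 complex ranged from -2.21 to -0.12 in this comparison, with Ssr2 at -0.64 ± 0.09 and Ssr3 at -0.88 ± 0.07.

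Spcs3, the glycosylated subunit of the signal peptidase, was 486 and 441 CPM in chief, 155 and 149 in neck and 110.4 and 106 in parietal cells, a difference of -1.75 ± 0.07, adjusted p = 1.7e-10 in mucus against chief cells. Spcs2 and Spcs1 differed by -1.15 ± 0.08 and -0.59 ± 0.07 in the same comparison. Of the Sec61 channel, Sec61a1 was 669 and 563 CPM in chief and 322 and 343 in neck cells, and Sec61b 524 and 515 and 217 and 235 CPM. In mucus against chief cells they differed by -1.11 ± 0.08 and -1.18 ± 0.07, and in mucus against parietal cells by 0.51 ± 0.08 and 1.13 ± 0.08. Sec61g was low throughout, from 10.2 to 40.3 CPM, and has annotated pseudogene copies, so its values are uncertain. In pit against neck cells 5 of the 10 were lower (of all genes 29.2%), Sec61a1 the most at -0.44 ± 0.08. The median of -0.15 was the smallest in size of the 5 groups.

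All 7 ERAD genes were lower in mucus than in chief cells, with the largest median difference of the 5 groups (-2.24), and 5 of 7 on total UMIs, while against parietal cells 1, Derl3, was higher and 3 were lower. Of all genes 24.2% were lower than in chief cells (9.33% on total UMIs), and 32.3% were higher and 34.6% lower than in parietal cells. Herpud1 encodes a membrane scaffold of the ERAD ligase complex (chr8:95113022-95123141, GRCm39, plus strand). It was 2203 and 2105 CPM in chief, 368 and 551 in neck, 291 and 263 in parietal, 168.4 and 228 in isthmus, 149.9 and 178 in mature pit and 141 and 153 in pre-pit cells. Chief cells were far above every other type in both pools. The difference was -3.01 ± 0.13, adjusted p = 6.4e-10 in mucus against chief, 2.96 ± 0.18, adjusted p = 8.4e-09 in chief against parietal and -1.56 ± 0.15, adjusted p = 1.2e-06 in pit against neck cells, and -0.05 ± 0.14, adjusted p = 0.787 in mucus against parietal cells. Syvn1, the ubiquitin ligase HRD1, was 408 and 338 CPM in chief, 114 and 106 in parietal and 76.2 and 107 in neck cells. Edem1, which trims mannose from misfolded glycoproteins, was 406 and 332 CPM in chief, 179 and 162.1 in parietal and 96.4 and 101 in neck cells. Both were lower in mucus than in chief cells (-2.44 ± 0.12 and -2.24 ± 0.09) and lower than in parietal cells (-0.69 ± 0.12 and -1.13 ± 0.09). Derl1, a channel component, followed the same order, with -0.59 ± 0.07 in mucus against parietal cells. Sel1l, the partner of HRD1, was 407 and 380.2 CPM in chief, 175 and 158.02 in neck and 178 and 148 in parietal cells, the last 2 overlapping.

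Derl3, a derlin known for its place in professional secretory cells, was close to a chief cell gene (chr10:75729215-75731775, GRCm39, plus strand). It was 291 and 198 CPM in chief, 14.3 and 12.9 in neck, 6.38 and 5.62 in isthmus, 2.32 and 1.25 in pre-pit, 0.593 and 0.436 in parietal and 0.454 and 0 in mature pit cells. Mature pit cells held 1 UMI in all and chief cells 1033, a ratio of 1179 with an exact 95% interval from 211 to 46631 that covers counting error only. Neck cells differed from chief cells by -4.15 ± 0.17, adjusted p = 8.2e-10. Thinned to 10000 UMIs a cell, Derl3 was seen in 75.3% and 60.7% of chief cells, 14.4% and 11.4% of neck cells, 0.251% and 0.662% of parietal cells and in 0 of 50 and 0 of 67 mature pit cells, which allows shares of up to 6.00% and 4.48%, a limit on cells with a UMI at that depth and not on cells that express the gene. Without thinning the shares were 89.0% and 88.8% in chief, 5.22% and 4.46% in pre-pit, 2.50% and 1.99% in parietal and 1.89% and 0% in mature pit cells. The fitted differences that take in pit cells depend on the prior count and on 1 pool: without pool K they went from -6.396 ± 0.18 to -7.37 in mucus against chief, from 2.43 ± 0.91 to 1.419 in mucus against parietal, and from -4.49 ± 0.40 to -6.88 in pit against neck cells.

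Pit and neck cells both make mucus. The largest differences in pit against neck cells were, apart from Derl3, those of Creb3l4, Dnajb9, Creb3l1, Herpud1 and Agr2, given above. P4hb, Calr, Canx, Sec61b, Sec61g, Spcs1 and Derl2 had positive values up to 0.21 ± 0.11 for Canx, none of them called, and on total UMIs all 7 were below 0. The dissociation list moved with this comparison as well: 13 of 15 were lower in pit than in neck cells (of all genes 29.2%), with a median of -2.30. Its summed level was 5331 and 13236 CPM in neck cells of pools K and T, between 1402 and 2158 CPM in the pit types, and 6490 and 10981 CPM in chief cells. Within the neck cells it was 19166 and 21979 CPM in cluster 0 and between 1276 and 4260 CPM in clusters 2, 7 and 12. Without neck cluster 0, 29 members were again lower in pit cells and 28 of them were the same (of all genes 29.0% lower and 25.6% higher): Atf4 was no longer called (-0.04 ± 0.11, adjusted p = 0.802) and Hsp90b1 was (-0.42 ± 0.17, adjusted p = 0.0451).

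Neck cells alone against chief cells gave 5 members higher and 33 lower (of all genes 19.9% higher and 18.6% lower), and on total UMIs 9 higher and 14 lower (of all genes 65.4% and 5.12%). The 5 were Agr2, Ern2, Creb3l4, Creb3l1 and Pdia3. Ern2 differed by 2.92 ± 0.12, adjusted p = 5.4e-10, Creb3l4 by 2.86 ± 0.17, adjusted p = 2.6e-08 and Agr2 by 2.56 ± 0.18, adjusted p = 1.3e-07. Pdia4 was called lower with the pool as a block (adjusted p = 0.0097) and not without it (0.0795). Of the 15 genes of the dissociation list, 1 was higher and 0 lower in neck than in chief cells in edgeR's test. At an unadjusted p under 0.05 these counts were 3 and 0, and the part of the list was not tested. Mature pit against pre-pit cells gave 4 members lower and 0 higher in edgeR's test, of all genes 3.84% lower and 6.52% higher, and with the pool as a block 8 lower and 1 higher (of all genes 5.59% and 8.62%). At an unadjusted p under 0.05, 2 members were higher, and DESeq2 called 1 higher and 5 lower. The 4 were Creb3l4 (-1.095 ± 0.19), Pdia6 (-0.55 ± 0.13), Spcs2 (-0.35 ± 0.10) and Creb3l1 (-0.33 ± 0.09). The block added Hsp90b1, Manf, Creld2 and Ssr1 as lower and Dnajb9 as higher, the last with 54.5 and 63.8 CPM in mature pit and 28.3 and 39.8 CPM in pre-pit cells.

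Isthmus cells, the dividing progenitors, were set against the average of the 5 remaining types. They were higher for 7 members and lower for 19 (of all genes 28.1% and 23.1%), and on total UMIs higher for 18 and lower for 5 (of all genes 56.9% and 6.30%), so the direction of the group depends on the scale. The 7 were Ern2 (1.103 ± 0.06), Creb3l4 (1.08 ± 0.10), Agr2 (0.84 ± 0.12), Creb3l1, Sdf2l1, Pdia6 and Ssr1. Xbp1 (-0.92 ± 0.07), Herpud1 (-0.89 ± 0.14), Syvn1 (-0.88 ± 0.12) and Edem1 (-0.81 ± 0.09) were lowest relative to that mean, and Hspa5 at -0.15 ± 0.10 was not called. With the pool as a block Hyou1 and Dnajb9 were also lower and Derl3 higher. Of the dissociation list 7 of 15 were higher in isthmus cells and 0 lower in edgeR's test (10 higher and 0 lower at an unadjusted p under 0.05), with a median of 0.81 and a summed level of 4713 and 7739 CPM, and its part in the result was not tested.

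Cluster 12 of the neck cells, 173 cells, was set against the average of neck clusters 0, 2 and 7. It was higher for 19 members and lower for 0, where 5.12% of all genes were higher and 5.17% lower, and on total UMIs for 7 and 0 (of all genes 2.55% and 19.9%). At an unadjusted p under 0.05, 0 members were lower by edgeR, and DESeq2 called 21 higher and 0 lower. Derl3 was 47.4 and 37.4 CPM in cluster 12 of pools K and T, 14.9 and 16.4 in cluster 7, 7.38 and 8.24 in cluster 2, 13.8 and 11.4 in cluster 0 and 329 and 220.2 in the chief cluster 10. Cluster 12 thus lay between the other neck clusters and chief cells, by 1.92 ± 0.22, adjusted p = 1.5e-06 above the former. Xbp1 was 1488 and 1379 CPM in cluster 12, 1068 and 1110.2 in cluster 7, 808 and 780.4 in cluster 2 and 925 and 975 in cluster 0, a difference of 0.61 ± 0.07, adjusted p = 7.2e-07. Creld2 differed by 0.73 ± 0.17, adjusted p = 0.0058, Herpud1 by 0.69 ± 0.17, adjusted p = 0.0084 and Ssr4 by 0.59 ± 0.09, adjusted p = 9.1e-05. Of the genes that led in neck cells, Creb3l1 was also called (0.31 ± 0.07), and the next 3 were not: Agr2 was 5793 and 6885 CPM in cluster 12 and 8423 and 8575 in cluster 7 (0.18 ± 0.15, adjusted p = 0.533), and Ern2 and Creb3l4 were at 0.16 ± 0.08 and 0.09 ± 0.14, neither called.

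The 5 chief cell markers moved with cluster 12 as well. Their summed level was 11750 and 14434 CPM there, 1429 to 5067 CPM in the other neck clusters and 55054 and 63778 CPM in the chief cluster, all 5 being detected; the part of chief transcripts in the result was not tested. Against clusters 2 and 7 alone, 18 members were higher and 0 lower (of all genes 4.43% and 5.26%), 16 of them shared with the 19: Manf, Ssr3 and Sel1l were no longer called, and Atf4 and Syvn1 were. With the pool as a block Hyou1, Pdia6 and Syvn1 were called higher too.

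**Figure D4:**
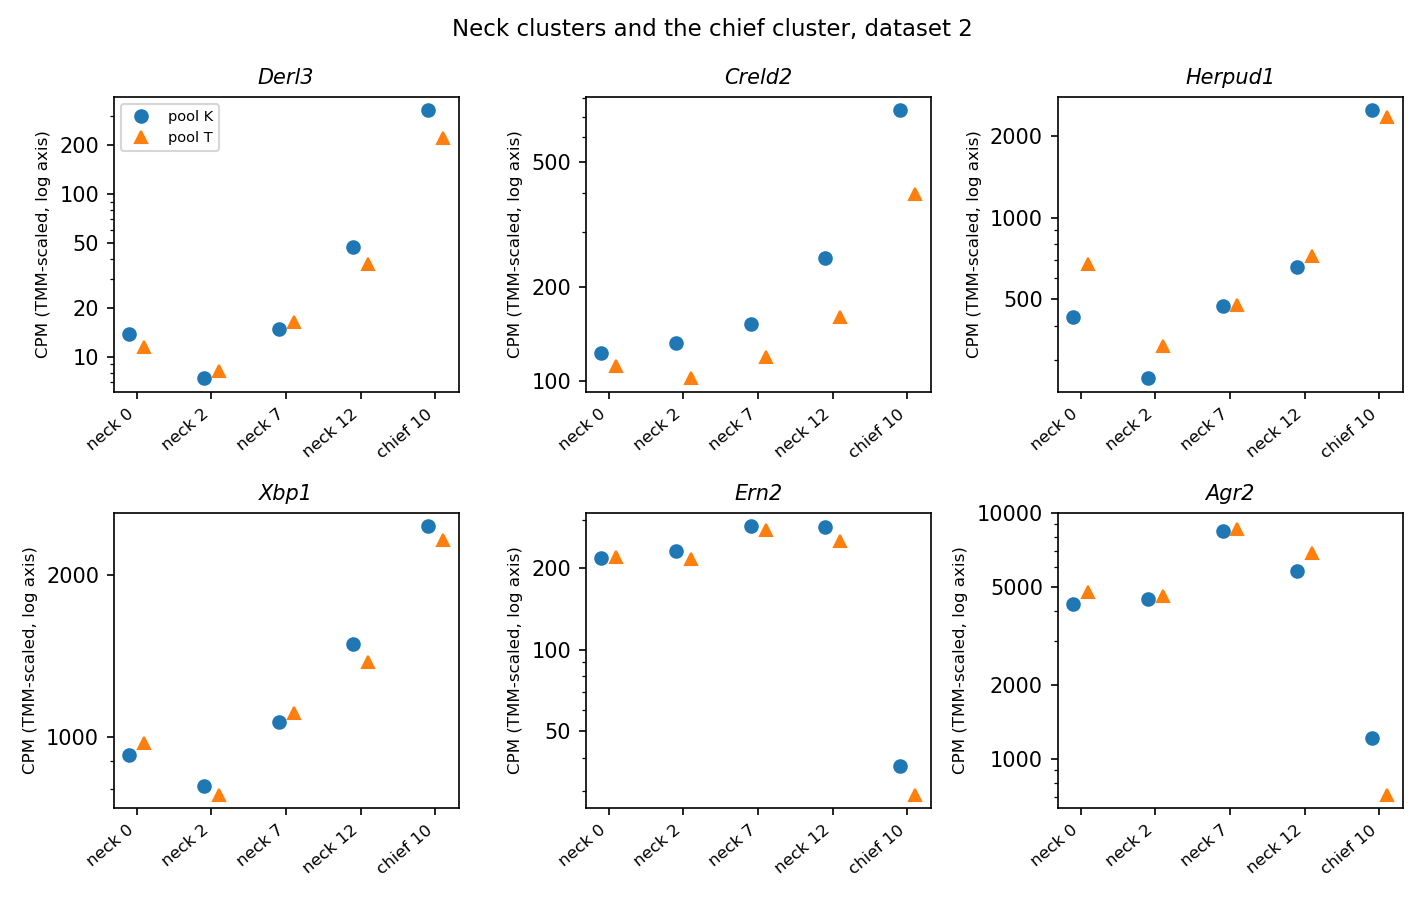
Level in CPM (log axes) of 6 members in neck clusters 0, 2, 7 and 12 and in chief cluster 10 of dataset 2, with a circle for pool K and a triangle for pool T. In both pools Derl3, Creld2 and Xbp1 are higher in cluster 12 than in every other neck cluster in the same pool and highest in the chief cluster, while Ern2 and Agr2 are lowest in the chief cluster.

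The 2 parietal clusters differed in the share of mitochondrial UMIs, which the deposited annotation gives as a median of 22.8% in cluster 1 and 12.6% in cluster 8, and in the dissociation genes, which summed to 2208 and 3058 CPM in cluster 1 and to 6076 and 4538 CPM in cluster 8. Cluster 8 was higher for 2 members and lower for 15 (of all genes 12.3% and 14.9%), and on total UMIs for 6 and 6 (of all genes 27.6% and 7.38%); the part of the dissociation response was not tested. The sensors were lower in cluster 8, with Atf6 at -0.73 ± 0.09, adjusted p = 3.3e-06, Ern1 at -0.72 ± 0.13, adjusted p = 0.00021 and Eif2ak3 at -0.52 ± 0.11, adjusted p = 0.00094. Sel1l was also lower (-0.77 ± 0.10, adjusted p = 3.2e-06). Atf4 and Sec61b were the 2 higher members, by 0.65 ± 0.15, adjusted p = 0.0018 and 0.48 ± 0.10, adjusted p = 0.00058. With the pool as a block Canx was also lower and Ssr4 higher.

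Dataset 1 came from other mice and gave the same comparisons over its own 2 pools. Per the paper, the dissociation enzymes were used in another order, and debris was sorted out by a nuclear stain in dataset 2 only. Differences in size between the datasets cannot be told apart from these steps. In mucus against parietal cells 30 members were higher and 4 lower (of 10229 genes, 24.5% and 28.3%). Between the datasets 24 members were called higher in both, 4 lower in both and 0 in opposite directions, and 35 of 41 had the same sign. The same counts over all genes are not given here, so this agreement does not set the members apart from other genes. Agr2 differed by 7.68 ± 0.21 in dataset 1 and 4.97 ± 0.19 in dataset 2, with 7882 and 8493 CPM in neck and 12.7 and 25.1 CPM in parietal cells of dataset 1. Ern2 was 173 and 163.97 CPM in neck and 0 and 0.949 CPM in parietal cells, 299 against 2 UMIs, a ratio of 266 with an exact 95% interval from 72.9 to 2204. Sdf2l1 differed by 3.18 ± 0.24 and 2.05 ± 0.13, and Eif2ak3 by -1.41 ± 0.15 and -1.53 ± 0.08. In pit against neck cells of dataset 1, 24 were lower and 1, P4hb, higher (0.41 ± 0.12, adjusted p = 0.0093), of all genes 21.7% lower and 20.1% higher. In both datasets 23 members were lower, and 35 of 41 had the same sign, again without counts over all genes. The dissociation list moved here too, with 13 of 15 lower in pit than in neck cells of dataset 1, and in mucus against parietal cells 6 were higher and 0 lower in edgeR's test (6 and 1 at an unadjusted p under 0.05); its part was not tested. Creb3l4 was 327 and 266 CPM in neck and 1.299 and 1.424 CPM in mature pit cells of dataset 1, 518 against 2 UMIs, a ratio of 200.4 with an interval from 55.2 to 1659. The ratios of Ern2 and Creb3l4 are on the scale of the fit with cluster 10 described below, and their CPM values are on the scale without it.

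**Figure D5:**
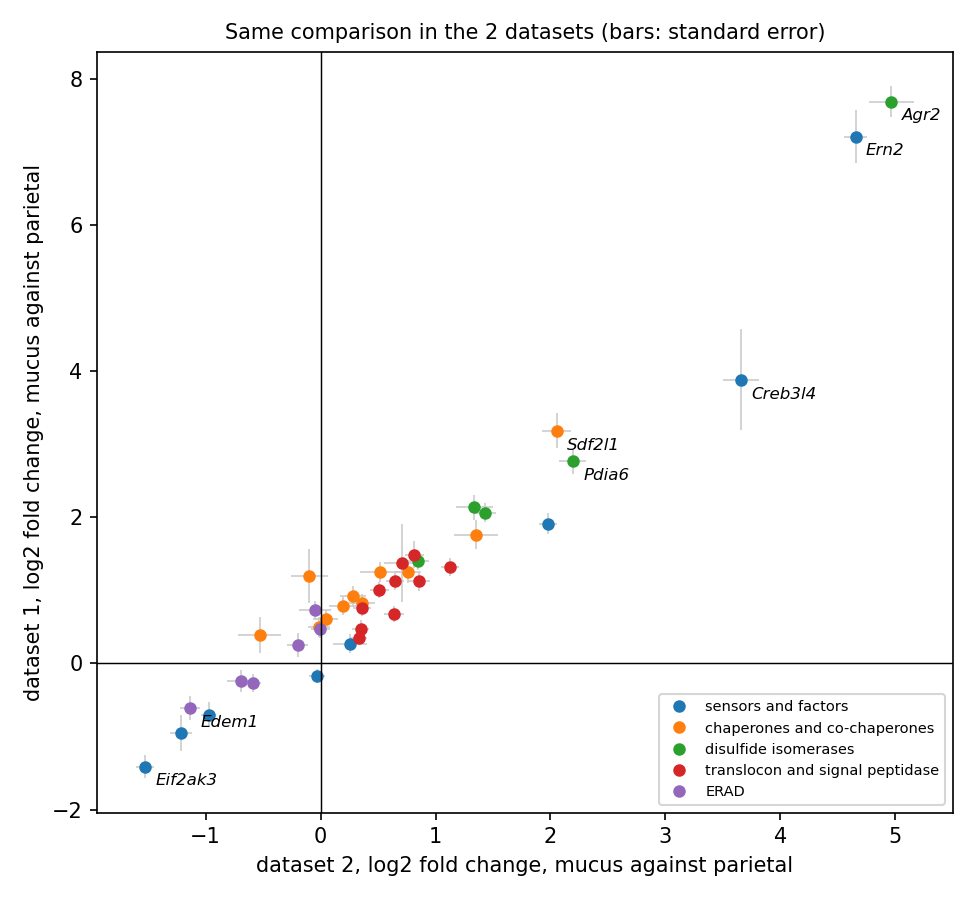
Log2 fold change of 40 members in mucus against parietal cells in dataset 2 (horizontal axis) and dataset 1 (vertical axis), with bars for the standard error and colours for the functional groups; Derl3, near 0 UMIs in pit and parietal cells of dataset 1, is left out. Agr2 and Ern2 lie farthest up and right, and Eif2ak3 lies farthest down and left.

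Cluster 10 of dataset 1, 21 cells, was not named in the sources used here, but its cells carry the name of chief cells in an earlier annotation column, and the 5 chief markers summed in it to 49979 and 111994 CPM. This comparison was chosen after the values were seen. Mucus cells were higher than cluster 10 for 3 members and lower for 32 (of 10163 genes, 13.7% and 14.7%), and on total UMIs for 5 and 23 (of all genes 38.7% and 6.72%). In both datasets 3 members were higher in mucus cells (Agr2, Ern2 and Pdia3), 32 were lower and 38 of 41 had the same sign. Counts over all genes are not given for this agreement either. Creb3l4 and Creb3l1, called higher in mucus than in chief cells of dataset 2, were not called against cluster 10. In both pools these 2 genes lay above cluster 10 in neck cells and below it in mature pit and pre-pit cells. Pdia3 overlapped cluster 10 in mature pit and pre-pit cells. Of the dissociation list 1 was higher and 10 of 15 were lower in mucus cells than in cluster 10, and its part was not tested. Herpud1 was 3774 and 2766 CPM in cluster 10 and 582 and 517 CPM in neck cells of tube1 and tube2, a difference of -3.32 ± 0.12, adjusted p = 3.3e-14 in mucus against cluster 10. Derl3 was 245 and 472 CPM in cluster 10, 205 UMIs in all, against 0 UMIs in mature pit and pre-pit cells together, so it was at least 456-fold higher, with a floor of 3 UMIs over that group. Against the 1 UMI of parietal cells the ratio was 1197 with an interval from 212 to 47506.

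Antrum pit cells were compared with corpus pit cells in dataset 1. They were higher for 4 members and lower for 0 in edgeR's test, where 5.48% of all genes were higher and 3.75% lower, and 3 members were lower at an unadjusted p under 0.05, while DESeq2 called 3 higher and 0 lower. Agr2 was 3503 and 3713 CPM in antrum mature pit, 3898 and 3743 in antrum pre-pit, 2299.8 and 2246 in corpus mature pit and 1841 and 2330.4 in corpus pre-pit cells, and antrum and corpus did not overlap (0.77 ± 0.11, adjusted p = 8.3e-05). Hspa5 was 996 and 1388 CPM in antrum mature pit and 633 and 876 CPM in corpus mature pit cells (0.60 ± 0.12, adjusted p = 0.0021). Herpud1 (0.49 ± 0.11, adjusted p = 0.0072) and Sel1l (0.41 ± 0.10, adjusted p = 0.0097) were the other 2. Markers of goblet cells moved with the antrum: the 5 of the goblet list, Muc2, Fcgbp, Zg16, Clca1 and Spink4, summed to 1366 to 15012 CPM in antrum and 153 to 497 CPM in corpus pit cells, with 4 or 5 of the 5 detected in antrum cells, and their part in the result was not tested. With the pool as a block Hsp90b1 and Manf were also higher.

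Other genes of the same pathways were counted from lists of their known roles, which hold no member. Their counts stand beside the shares of all genes given above, 23.5% higher and 24.2% lower in mucus against chief and 32.3% and 34.6% in mucus against parietal cells. Of 22 further genes of redox folding, 5 were higher and 11 lower in mucus than in chief cells, and 11 were higher and 7 lower than in parietal cells. The 5 and the 7 were shares near those of all genes. Ero1b, an oxidase that recharges disulfide isomerases, was 582 and 451 CPM in chief and 30.4 and 27.7 CPM in neck cells (-4.85 ± 0.11, adjusted p = 7.8e-13). Pdia5, a further disulfide isomerase, was 77.9 and 77.7 CPM in neck, 32.4 and 20.03 in chief and 5.87 and 6.04 in parietal cells, and it was above chief cells in mucus cells by 1.33 ± 0.15, adjusted p = 4.7e-06 and above parietal cells by 3.41 ± 0.13, adjusted p = 1.7e-11. Qsox1, a sulfhydryl oxidase of the late secretory pathway, was 209.9 and 319.8 CPM in mature pit and 9.26 and 10.3 CPM in parietal cells (3.99 ± 0.18, adjusted p = 1.7e-10 in mucus against parietal).

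Beside the same shares of all genes, 23.5% and 24.2% against chief and 32.3% and 34.6% against parietal cells, 4 further lists were counted. Of 18 genes of oligosaccharyl transfer and glycan trimming, 0 were higher and 11 lower in mucus than in chief cells by edgeR's test, and 10 were higher and 6 lower than in parietal cells. The 6 were a share near that of all genes. Ostc, a subunit of the transferase, was 270.3 and 258 CPM in neck and 63.1 and 58.1 CPM in parietal cells. Of 15 further translocation genes, 2 were higher and 10 lower than in chief cells, and 3 and 4 than in parietal cells, both below the shares of all genes; Sec11c, a catalytic subunit of the signal peptidase, was 744 and 721 CPM in chief, 387 and 400.1 in neck and 72.9 and 69.2 in parietal cells. Of 18 further ERAD genes, 0 were higher and 12 lower than in chief cells, and 1 and 13 than in parietal cells; Edem2, a mannose-trimming enzyme, was 504 and 563 CPM in chief and 105 and 111 CPM in neck cells. Of 16 genes of COPII transport, which carries folded cargo out of the ER, 1 was higher and 13 lower than in chief cells, and 9 and 3 than in parietal cells. At an unadjusted p under 0.05, 0 glycosylation and 1 ERAD genes of these lists were higher in mucus than in chief cells.

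Of 19 further genes of the UPR and the integrated stress response, 2 were higher and 12 lower in mucus than in chief cells, and 4 were higher and 11 lower in pit than in neck cells, where 23.5% and 24.2% of all genes were higher and lower in the first comparison and 23.9% and 29.2% in the second. The 4 higher in pit cells were a share near that of all genes. Chac1, a target of ATF4, was 73.2 and 138 CPM in chief, 1.40 and 7.47 in neck and 0.771 and 1.16 in parietal cells. Asns, another, was 952 and 848 CPM in chief and 258 and 241 CPM in neck cells. Of 4 transcription factors of secretory cells, Bhlha15 followed the chief-led members. Spdef, a factor of mucous cells that was named after its values were seen, was 276 and 293 CPM in neck, 115 and 89.7 in chief and 8.78 and 9.31 in parietal cells. Both pit types lay below chief cells, mature pit cells at 58.1 and 57.7 CPM and pre-pit cells at 70.0 and 67.3 CPM. The mucus mean of Spdef was above chief cells by 0.40 ± 0.09, adjusted p = 0.0024, and above parietal cells by 3.89 ± 0.10, adjusted p = 7.6e-13.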

How the data were processed

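Per the labels and the methods, the authors demultiplexed the Quartz-Seq2 reads with bcl2fastq 2.20.0.422, aligned them with STAR to GRCm39 and counted UMIs per gene and well with Drop-seq tools. The deposited tables hold these raw counts for every well, and 4484 wells were kept here, those listed in the authors' deposited annotation, which holds the cluster, the number of genes (2501 or more) and the mitochondrial percentage of each cell, a percent of UMIs computed by the authors. A further 4484 columns of pooled tables, which repeat the kept cells, were not used. No doublet caller was run here, because single cells were sorted into wells.

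For each pool, the UMIs of all cells of a type or cluster were added up. Plates are technical, so n was 2 pools per dataset. Nothing is known of the single mice within a pool. The test on these sums was edgeR's quasi-likelihood test (version 4.0.16 under R 4.3.3, with filterByExpr and TMM), with Benjamini-Hochberg adjustment across all genes; calls needed an adjusted p under 0.05. The standard error is the log2 fold change divided by the square root of F. The fits held 13894 genes and 12 sums for the types of dataset 2, 12922 genes and 28 sums for its clusters, and 10229 genes and 14 sums for dataset 1. Types of 1 pool come from the same mice, which pairs them. In dataset 2 the log2 difference between pools K and T was taken for each gene in each type. Over genes, these differences correlated between types with a median r of 0.13 in 15 pairs (0.07 to 0.41). Alternatives were DESeq2 1.42.0, no filter, total UMIs without TMM, removal of genes over 1% of UMIs or of mitochondrial genes, the pool as a replicate block, plates as samples, cells weighted equally (limma 3.58.1) and leaving out a pool. Tests were tried on simulated data first.

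The members and lists were chosen with earlier results of these data known. All 41 measured members could be named, with full statistics for those called with a log2 fold change of at least 1 in size in the 4 main type comparisons. From the related lists the 2 called genes with the largest difference in each direction could be named. UMI counts were not shown to separate strands here, and 26 of the 41 members overlap a gene on the other strand in the annotation, so their counts may hold reads of that gene. Intervals and floors cover counting error only.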

Additional observations from a re-analysis of the deposited data

Results flagged for a closer look

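The share of UMIs on the 41 members was compared between the 6 plates of each pool and type, 12 groups of plates in all, and chance alone would set 1 plate apart in about 1 of 20 such groups. In chief cells of pool K, 1 plate held 2.6828%, while the 6 plates together had a median of 2.14% and a lowest value of 2.05%, and the gap to the nearest plate was 0.693 of the range against a critical value of 0.625. That plate held 12 chief cells. In parietal cells of pool K, 1 plate held 0.73307% in 83 cells, below a median of 0.762% over the 6 plates, with a gap of 0.653 of the range.

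For 2 members both pools of dataset 2 lay on one side of 0 and both pools of dataset 1 on the other, and the difference between the datasets was not tested. Derl2 in mucus against parietal cells had a mean log2 difference of -0.198067 in dataset 2 and 0.28 in dataset 1. Sec61b in pit against neck cells had a mean log2 difference of 0.0410694 in dataset 2 and -0.27 in dataset 1.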

How the results depend on the processing

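The number of members called stayed within 1.5 times the reported one in 101 of 112 alternatives over 13 comparisons, and the cause of the others was not tested. This number takes both directions together, so a change in the split between higher and lower does not show in it. The splits of the isthmus comparison and of parietal cluster 8 against cluster 1 changed on total UMIs, as given above, and still count as within that range. In neck against chief cells 23 members were called, in place of 38, both on total UMIs without TMM and with cells weighted equally (9 higher and 14 lower in each). In mature pit against pre-pit cells 4 became 13 without a filter on low counts, 13 on total UMIs, 13 with cells weighted equally, 20 with plates as samples and 9 with the replicate block. Neck cluster 12 had 7 members on total UMIs and 6 with cells weighted equally in place of 19, parietal cluster 8 against cluster 1 had 10 (7 higher, 3 lower) with cells weighted equally in place of 17, and antrum against corpus pit cells had 7 (6 higher, 1 lower) without a filter in place of 4. The replicate block moved no other count by over 1.5 times, and the single calls it changed and that bear on a described result are given with it.

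None of the 81 reported log2 fold changes of at least 1 in size changed sign. Hsp90b1 in mucus against chief cells lost its call on total UMIs (-0.38, edgeR adjusted p = 0.0541) and with cells weighted equally (-0.30, limma adjusted p = 0.145). Leaving out a pool leaves no residual degrees of freedom, so it gives values only, and 3 values moved by more than the spread between pools, all Derl3 without pool K. With 2 pools the tests rest on small spreads, sums of chief cells rest on 180 cells, and Derl3 in pit cells lies at the limit of the depth.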

Other observations

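Small clusters of dataset 2 outside the 6 types also held the members, at levels from sums of few cells. In cluster 17, 29 cells, Herpud1 was 899.6 and 1196 CPM and Hspa5 2581 and 3281 CPM in pools K and T, both above the neck sums. In cluster 14, 53 cells, Hspa5 was 1669 and 1811 CPM and Ern2 1.77 and 5.74 CPM. In cluster 15, 32 cells, Ern2 was 79.7 and 81.8 CPM and Creb3l4 183 and 175 CPM. In clusters 18 and 19, 13 and 9 cells, Ern2 had 0 UMIs. These clusters entered no test.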
